A study of Drosophila melanogaster with 2 samples.

Results

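Of the 4797 thresholded chromatin peaks of the GFP-tagged nuclear receptor Hr83 in Drosophila larvae, 5 of the 16 strongest lay at or in genes about which little is known: CG14100, osp, CG13917, CG5335 and CG1888. Whole larvae of the third instar, collected at the wandering stage with males and females together, came from a transgenic line that stably expresses Hr83 with GFP at its C-terminus, and sonicated chromatin was immunoprecipitated with an antibody to GFP. There was 1 group with 2 biological replicates, which the labels number 3 and 4, and neither an untagged line nor another condition is analysed here. Chromatin of all larval tissues was mixed, so a stronger peak cannot be told apart from a peak present in more cells. Which promoter drives the fusion, its level, and whether untagged Hr83 remained in the line were not given in the sources used here.

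Membership rested on the peaks themselves: the 5 genes were chosen by the signal of their strongest peak in the same lists, so ranks and signals are descriptions and no test was made of them. Every summit in a gene or within 5 kb of it was assigned to it. Of the 13945 protein-coding genes of the annotation, 7060 (50.6%) had at least 1 thresholded summit by that rule, and all 5 members did, as their choice requires. Together the 5 genes held 12 of the 4797 thresholded regions, and 6 of the 12 summits lay inside the gene bodies.

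Hr83 is a nuclear receptor with no known ligand and belongs to the NR2E class, that of the fly protein Tailless and of the photoreceptor-specific nuclear receptor of vertebrates. Receptors of this class have a zinc-finger DNA-binding domain, and the hexamer AAGTCA is the known site of Tailless and its relatives. In chromatin immunoprecipitation sequencing, a peak is a stretch of genome enriched among the precipitated fragments, and its summit is the base where enrichment is highest. Such a peak shows where the tagged protein or its partners lay in fixed chromatin, not which gene they act on. The value called signal here is the authors' own score per region, comparable within a list but not between lists. The thresholded list was made from the replicate and pooled lists by an irreproducible discovery rate, a measure of how well ranks repeat between replicates, whereas the relaxed lists also hold background.

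The sequences under the peaks of CG14100, osp and CG13917, which held the ranks 2, 3 and 5 of the whole thresholded list, are shown because so little else is known of what the receptor met there. Each is the plus strand of dm6, written 5′ to 3′ and read from the RefSeq genome of that build. Capitals mark matches to the motifs described with the results: a forkhead variant, runs of G, K50 homeodomain sites, an AP-1 site and an octamer in the CG14100 peak; an AP-1 site and the hexamer of the NR2E class in the osp peak; a forkhead variant and a pair of forkhead sites in the CG13917 peak. The CG14100 peak is given as chr3L:19590525-19590743, from the first base outside the transcript to the end of the region, the osp peak as chr2L:14685716-14685914 and the CG13917 peak as chr3L:1591763-1591991. A further match to the forkhead variant in the CG14100 peak, at 19590519 to 19590525 on the minus strand, starts before the printed stretch and is not marked.
CG14100: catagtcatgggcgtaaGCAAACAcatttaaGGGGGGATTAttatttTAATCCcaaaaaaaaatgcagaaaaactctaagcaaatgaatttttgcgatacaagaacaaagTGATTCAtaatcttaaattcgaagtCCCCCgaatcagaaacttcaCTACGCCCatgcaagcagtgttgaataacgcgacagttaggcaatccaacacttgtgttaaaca
osp: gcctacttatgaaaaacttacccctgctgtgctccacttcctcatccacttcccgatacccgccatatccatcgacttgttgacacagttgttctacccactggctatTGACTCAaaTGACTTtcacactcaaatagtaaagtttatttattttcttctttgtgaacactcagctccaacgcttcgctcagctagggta
CG13917: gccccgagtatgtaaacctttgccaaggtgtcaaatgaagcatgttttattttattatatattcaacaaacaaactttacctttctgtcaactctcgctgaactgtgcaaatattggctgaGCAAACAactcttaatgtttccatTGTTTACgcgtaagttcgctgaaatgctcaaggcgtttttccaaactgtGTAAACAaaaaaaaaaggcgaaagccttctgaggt

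The strongest of the 5 peaks lay at CG14100 (FBgn0036889, chromosome 3L, 19589072 to 19590524, minus strand), which encodes a protein that RefSeq lists as uncharacterized. The deposited region spanned 19590498 to 19590743, and its summit at 19590604 lay 80 bp upstream of the only annotated transcription start site (TSS), that is at the promoter. Its signal was 1264 in the thresholded list, 606 in the relaxed list of replicate 3 and 648 in that of replicate 4. It therefore stood at rank 2 of the thresholded peaks, at rank 1 of 30000 regions in replicate 3 and at rank 4 in replicate 4. The summits of the replicates fell at 19590601 and 19590604.

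CG14100 had no other thresholded region. The next strongest region within 5 kb differed between the pooled list and the replicates. In the pooled relaxed list its summit was at 19594786, with a signal of 26.4. In the replicates it was on the other side of the top peak, at 19586182 in replicate 3 (21.4) and 19586104 in replicate 4 (18.7). These signals were 47.8, 28.3 and 34.7 times lower than the top peak in the same list. The pooled value was below its list's median of 28.6, and the replicates' values were above their medians of 14.2 and 16.3. The regions of the replicates overlap each other and a pooled relaxed region with a signal of 25.8, so only the pooled list's second region is a different one. As the lists do not share a second region, and CG14100 was chosen by its top signal, no contrast is read from the ratios. The peak faced the 3′ end of ash1, a histone methyltransferase of the trithorax group that is transcribed toward CG14100, and the end of ash1 was 169 bp from the summit. The TSS of ash1 lay 8151 bp away with no thresholded summit within 1 kb of it. A pooled relaxed region with a signal of 46.5 lay near that start, 8.215 kb from the top summit. Of the candidate targets with a TSS within 5 kb, CG14100 was the closest, followed by CG9330 at 4351 bp and CG9231 at 4601 bp. RefSeq lists the products of CG9330 and CG9231 as uncharacterized. Neither had a thresholded summit within 1 kb of its TSS, and the pooled relaxed region with a signal of 25.8 lay between their divergent starts.

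The peak at osp (FBgn0003016, chromosome 2L, 14599196 to 14689340, minus strand) was intronic. This gene of 90145 bp, outspread, is named for the wing posture of its mutants, and the alcohol dehydrogenase gene Adh lies inside it. The region spanned 14685716 to 14685914 with its summit at 14685814, which was 3526 bp downstream of the TSS shared by the 4 annotated transcripts. The summit fell in an intron of 48696 or 52306 bp, depending on the transcript, and 2652 bp from the exon nearest the TSS. Its signal was 1107 in the thresholded list, 440 in replicate 3 and 665 in replicate 4, at ranks 3, 3 and 2. Both replicates placed the summit on the same base.

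A second thresholded peak marked the osp promoter itself. Its summit at 14689267 lay 73 bp from the TSS, and its signal of 131 (rank 1146) was 8.47 times lower than that of the intronic peak. In the relaxed lists this promoter region had a signal of 69.4 in replicate 3 and 49.8 in replicate 4, at ranks 730 and 3255. The intronic region exceeded the promoter region by 6.34 times in replicate 3 and by 13.4 times in replicate 4. As osp was chosen by the signal of its intronic peak in these lists, the ratios are a description. The remaining pooled relaxed regions in and around osp, 33 of 35, ran from 17.9 to 46.8 and did not enter the thresholded list.

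Adh and its neighbour Adhr, both nested in osp, carried no thresholded summit within 1 kb of a TSS. The distance from the top summit was 69547 bp to the nearest Adh TSS and 68303 bp to that of Adhr. Relaxed pooled regions near these starts reached a signal of 35.6, at rank 11032. The other genes nested in osp were the noncoding lncRNA:CR43411 and the proline transfer RNA genes tRNA:Pro-AGG-1-3 and tRNA:Pro-AGG-1-4. They had no thresholded summit within 1 kb either, and their strongest pooled relaxed regions had signals of 33.0 and 35.2. The region with 35.2, near the transfer RNA genes, had its summit outside osp, 12 bp from the TSS of a gene that is not nested. The pooled relaxed region inside osp near the transfer RNA genes had a signal of 20.5. On the other side of the peak the nearest protein-coding gene was CG15282, at 26657 bp, so osp was the only gene with a TSS within 5 kb. The nested genes were named after their values were seen.

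At CG13917 (FBgn0035237, chromosome 3L, 1576699 to 1600845, plus strand) the peak was also intronic, and stronger than the peak at a promoter of the same gene. Both osp and CG13917 were chosen by their strongest peak, so no pattern is read from this order. The CG13917 protein is listed as uncharacterized. The region spanned 1591763 to 1591991, and its summit at 1591872 lay 5178 bp downstream of the inner of 2 annotated start sites and 15173 bp downstream of the outer. The next exon, shared by all 4 transcripts, began 872 bp further on. Its signal was 920 in the thresholded list, 368 in replicate 3 and 534 in replicate 4, at ranks 5, 7 and 5, with summits at 1591878 and 1591872 in the replicates.

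The inner promoter of CG13917 carried the gene's other thresholded peak, at 50 bp from the start, with a signal of 144 (rank 876) that was 6.37 times lower. Replicate 3 gave that region 66.5 and replicate 4 gave it 108, which is 5.54 and 4.97 times lower than the intronic peak. The outer promoter had only a relaxed region, with a pooled signal of 51.2 at 101 bp from the TSS. No other gene had a TSS within 5 kb of the intronic summit. The neighbours were CG12104, uncharacterized, with its nearest TSS 10162 bp away and no thresholded summit within 1 kb of it, and Tmep, transmembrane endosomal protein, 19971 bp away with a thresholded peak of 72.3 (rank 3878).

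**Figure D1:**
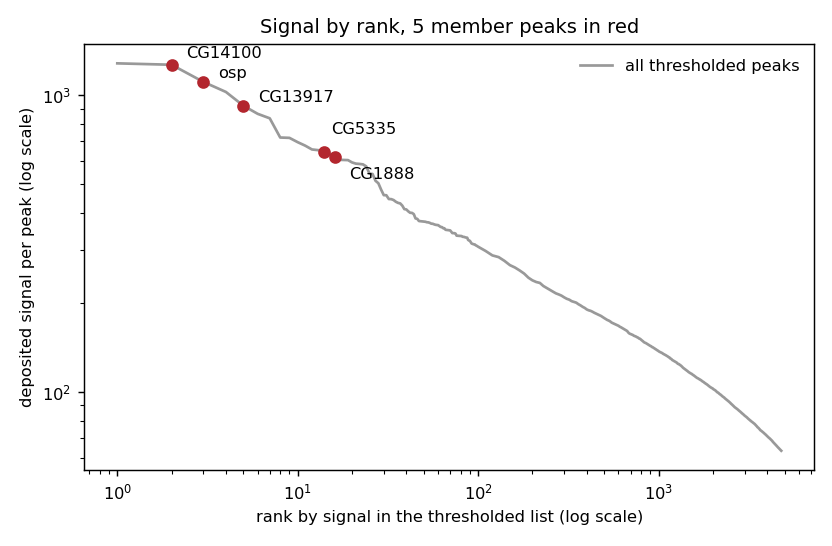
Deposited signal of the thresholded peaks against their rank, both on log scales, with the strongest peak at each of the 5 genes in red. The members stand at ranks 2, 3, 5, 14 and 16 of 4797, between 1264 and 617, against a median of 93.8 over all thresholded peaks.

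The peaks at CG5335 and CG1888, whose sequences are not shown, were weaker and both lay at promoters. CG5335 (FBgn0034365, chromosome 2R, 18621541 to 18622986, plus strand), an uncharacterized gene, lies wholly within Atg7, which encodes the E1-like enzyme of autophagosome formation and runs on the opposite strand. The region spanned 18621450 to 18621624 and its summit at 18621545 lay 4 bp inside the first exon of CG5335, in the 5′ UTR. The same base lay in an Atg7 intron of 1672 bp, 3499 bp from the Atg7 TSS. Its signal was 643 in the thresholded list, 335 in replicate 3 and 317 in replicate 4, at ranks 14, 12 and 20.

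More candidate genes started close to this peak than to any other of the 5. Of the 9 genes with a TSS within 5 kb of a top summit, 4 were here: CG5335, CG5493 at 2217 bp, Atg7 and Sec6, an exocyst subunit gene at 3704 bp. CG5493 had a thresholded peak of its own with a signal of 131 (rank 1127) 197 bp from its TSS, with 45.4 in replicate 3 and 88.5 in replicate 4. The top peak was 4.90 times as strong in the thresholded list, 7.36 times in replicate 3 and 3.58 times in replicate 4. Atg7 and Sec6 had no thresholded summit within 1 kb of a start, and a pooled relaxed region between their divergent starts, 17 bp from that of Sec6, had a signal of 60.9. The last thresholded region assigned to CG5335 lay 60 bp from the TSS of Cth, a gene of cysteine synthesis named after its values were seen. It had a signal of 75.7, and it was listed in the relaxed regions of replicate 4, at 53.8, and not in those of replicate 3.

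CG1888 (FBgn0033421, chromosome 2R, 9541947 to 9548135, minus strand), also uncharacterized, has 4 transcripts from 2 start sites. The region spanned 9547080 to 9547292, and its summit at 9547189 lay 231 bp upstream of the inner TSS and 946 bp downstream of the outer, within a 5′ UTR exon of the longer transcripts. Its signal was 617 in the thresholded list, 354 in replicate 3 and 266 in replicate 4, at ranks 16, 9 and 28. This was the member whose rank differed most between the replicates.

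CG1888 had 4 thresholded regions within the gene or 5 kb of it, against 3 at CG5335 and fewer at the others. That order did not hold without replicate 4, where CG1888 had 2 and CG5335 and CG13917 had 3 each, nor inside the gene, where CG1888 had 1 and osp and CG13917 had 2 each. The second, with a signal of 214 (rank 275), lay 13 bp from the TSS of lncRNA:CR43651, within which the microRNA gene mir-14 lies. It had 103 in replicate 3 and 90.1 in replicate 4, and the top peak was 2.89 times as strong in the thresholded list. The others had signals of 73.4 and 65.4, at ranks 3772 and 4544. In replicate 3 alone these last regions had only 13.9 and 21.1, at ranks 15625 and 7464, against 55.1 and 71.6 in replicate 4. The nearest coding neighbours were far: brp, the active-zone scaffold bruchpilot, ended 5624 bp away with its nearest TSS at 30738 bp, and the odorant receptor gene Or45b started 12409 bp away. Neither had a thresholded summit within 1 kb of a TSS. lncRNA:CR43651 and mir-14 were named after their values were seen.

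**Figure D2:**
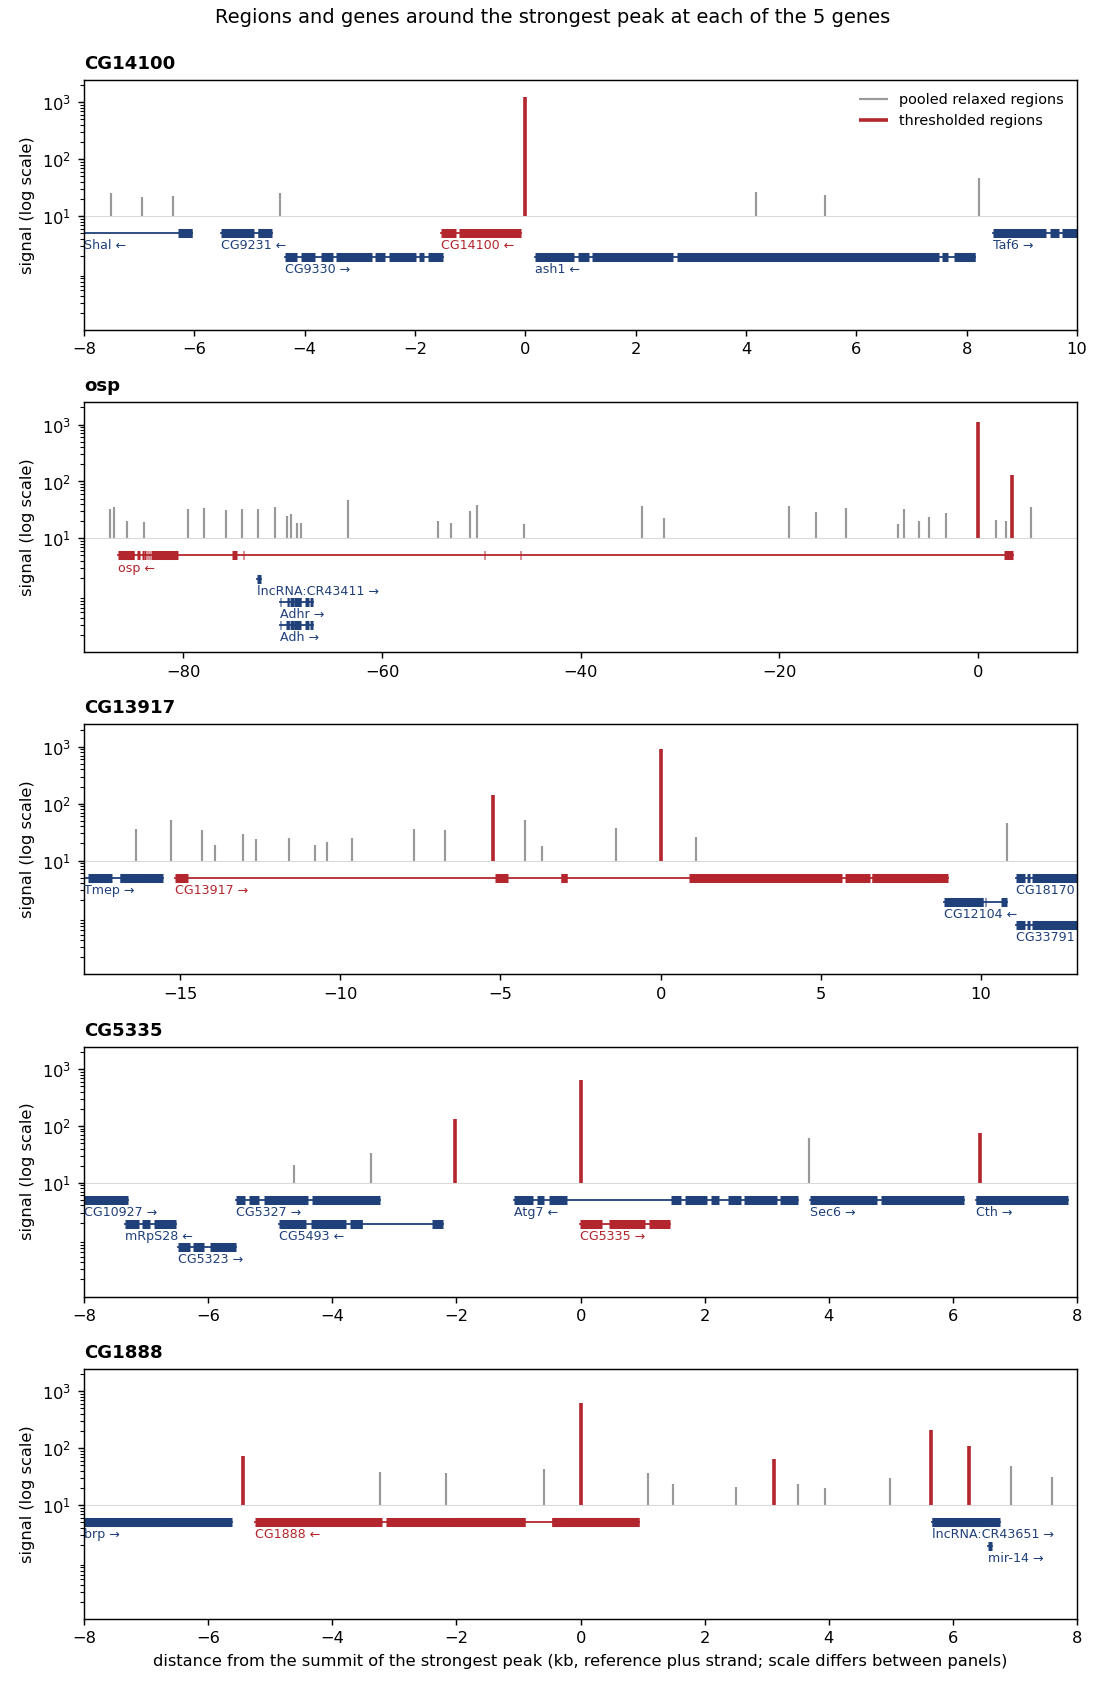
Pooled relaxed (grey) and thresholded (red) regions as lines whose height is the signal on a log scale, by distance in kb from the top summit of each gene, with gene models below each panel (thick, exons; arrows, direction of transcription; transfer RNA genes left out). At CG14100 the top peak is the only thresholded region drawn. At osp and CG13917 the top peak lies in an intron, 8.47 and 6.37 times stronger in the thresholded list than the peak at the gene's own promoter.

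The order of the members was not the same in the replicates. Divided by the median of its own relaxed list, 14.2 in replicate 3 and 16.3 in replicate 4, the signal at CG14100 was 42.7 and 39.8. At osp it was 31.0 and 40.8, and at CG13917 it was 25.9 and 32.8. CG5335 stood at 23.6 and 19.5, and CG1888 at 24.97 and 16.3. CG14100 led in replicate 3 and osp in replicate 4. CG13917, CG5335 and CG1888 lay close together in replicate 3, whereas CG13917 stood apart from the other two in replicate 4. With a single value per replicate no spread can be given for any of these orders, and depth is unknown.

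**Figure D3:**
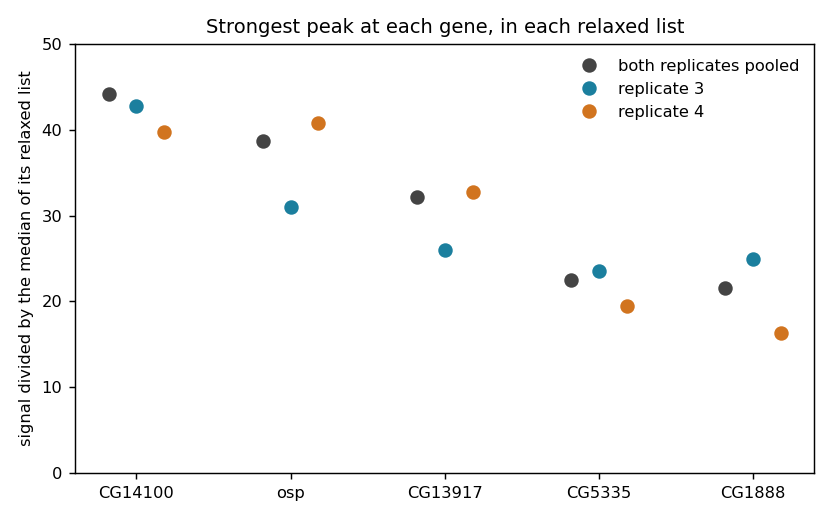
Signal of the strongest peak at each gene, divided by the median signal of the list it comes from, in the pooled relaxed list and in the relaxed lists of replicates 3 and 4; each point is 1 region. The values run from 16.3 to 44.2, with CG14100 highest in replicate 3 and osp highest in replicate 4.

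All 5 top peaks were overlapped by a relaxed region of each replicate, as were 4690 of the 4797 thresholded peaks (97.8%), so finding them in both is the usual case. Summit positions in the replicates lay close together. The replicates' summits were 0 bp apart at osp, 3 bp at CG14100 and at CG1888, and 6 bp at CG13917 and at CG5335. Over all thresholded peaks found in both replicates the median distance was 25 bp with quartiles of 10 and 52 bp, and 18.1% lay within 6 bp. Among the other 15 of the 20 strongest peaks the median was 11 bp with a range of 1 to 34 bp. Small shifts were thus shared by the strongest peaks in general, and the difference between the members and these 15 was not tested.

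**Figure D4:**
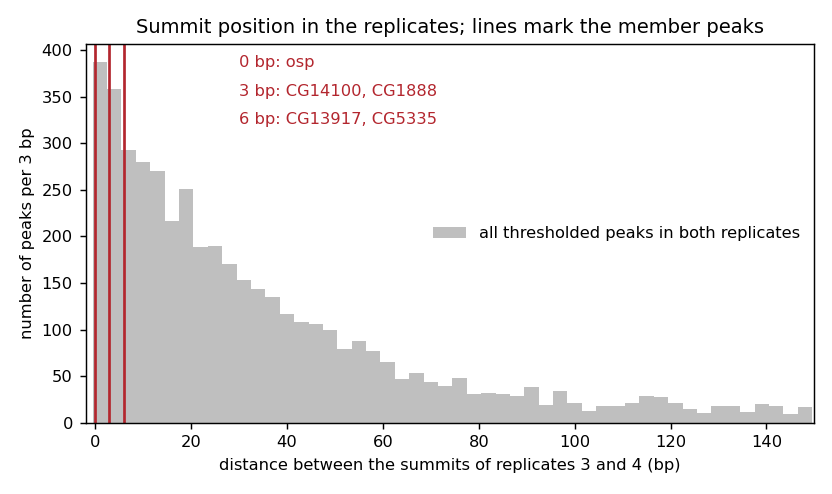
Histogram of the distance in bp between the summits of replicates 3 and 4 over the thresholded peaks found in both, with red lines at the 5 member peaks. The members lie at 0, 3 or 6 bp, at the left edge of a distribution with a median of 25 bp; distances over 150 bp are not drawn.

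The relaxed regions at these genes, top peaks included, were shared less completely. Of all relaxed regions in the lists, 48.8% of those of replicate 3 were overlapped by one of replicate 4, and 49.3% of those of replicate 4 by one of replicate 3. At osp 17 of 37 regions of replicate 3 were shared (45.9%) and 17 of 38 of replicate 4 (44.7%), near that background. At CG13917 the shares were 10 of 21 (47.6%) and 10 of 22 (45.5%). CG1888 had 9 of 12 (75%) and 9 of 11 (81.8%), CG5335 5 of 6 (83.3%) and 5 of 8 (62.5%), and CG14100 2 of 4 (50%) and 2 of 3 (66.7%). The counts at these last genes are small, and neighbouring regions share chromatin, so no difference is read from them.

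Of the 5 top summits, 3 lay within 500 bp of a TSS, those of CG14100, CG5335 and CG1888, beside 64.3% of all thresholded peaks and 7 of the other 15 of the 20 strongest. No difference is read from 5 peaks. The regions were 175 to 246 bp wide, whereas both quartiles of all thresholded regions were at the list's maximum of 256 bp; the other 15 of the 20 strongest were also narrow, with a median of 191 bp. GC content in the 200 bp around the summit was 36.5% at CG14100, 44.0% at osp, 34.0% at CG13917, 45.5% at CG5335 and 41.0% at CG1888, against a median of 44.5% over all thresholded peaks with a range of 25% to 72%. Which member was poorest in GC depended on the window: within 100 bp around the summit CG14100 had 27% and CG13917 37%, and over the deposited regions they had 36.6% and 37.6%.

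None of the 5 regions was a copy of another part of the genome. Each sequence had 1 full-length match, its own, and 0 other matches at a BLAST E-value up to 1e-05. The nearest annotated transposable element was between 9519 bp (osp) and 78279 bp (CG13917) away. Copies that the line carries and the reference genome lacks cannot be seen in this way.

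In the 200 bp around each summit, 21 motifs were searched on both strands, and 7 combinations of a motif and a peak were found. The 21 include a scrambled hexamer, ACATGA, which was in none of the 5 windows and in 5.65% of all thresholded peaks. Each match is given beside its share of all thresholded peaks, and neither a shortage nor an excess is read from the count of 7. The NR2E hexamer AAGTCA occurred only at osp, on the minus strand with its centre 22 bp from the summit; 8.65% of all thresholded peaks and 11.3% of windows of the same length at coding TSSs hold it. The extended form AAAAGTCA and the general nuclear receptor hexamer AGGTCA were in none of the 5 windows, against 1.38% and 3.00% of all thresholded peaks.

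AP-1 sites, TGANTCA, the target of the Jun and Fos proteins, were in the windows of CG14100, 34 bp from the summit, and osp, 13 bp from it. In the osp sequence the AP-1 site and the NR2E hexamer are separated by AA only. Of all thresholded peaks 4.38% hold an AP-1 match, and of the coding TSS windows 3.77%. The forkhead site TGTTTAC occurred at CG13917 alone, 39 and 88 bp from the summit and in opposite orientations, beside 2 of the other 15 strongest peaks, 21% of the 100 strongest and 8.92% of all thresholded peaks. Here and below the 100 strongest include the members and the other 15, so these shares are not separate observations. The pentamer TCAGT of the initiator was in the CG14100 and CG1888 windows and in 35.0% of all, and the homeobox core TAATTA was at CG1888 and in 7.80%. No window held the GAGA element GAGAGAG (11.97% of all), the DRE core TATCGATA (6.48%) or Motif 1, GTCACACT (3.84%), all elements known from fly promoters, and the remaining motifs were absent as well. A missing match says only that these letters are not in the window.

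Sequence shared among the peaks was limited to short words. A single octamer, AGCAAACA, occurred in 3 of the 5 windows, CG14100, CG13917 and CG5335, beside 3.42% of all thresholded peaks, 1.89% of coding TSS windows and 2 of the other 15 strongest. No octamer occurred in 4 or 5 windows, and 26 occurred in 2. The octamer contains GCAAACA, a variant of the forkhead site, which was added to the search after the sequences were seen; it was found in the same 3 windows, in 4 of the other 15 strongest peaks, in 17% of the 100 strongest and in 9.86% of all thresholded peaks. It was in 15.02% of peaks farther than 500 bp from a TSS and 7.00% of those nearer. A further variant, GTAAATA, was in none of the 5 windows, in 5 of the other 15, in 16% of the 100 strongest and in 7.61% of all. Since AGCAAACA was picked from these windows, its count in them supports nothing.

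CG14100 had the most matches to the words added in this way. As the words were chosen after these sequences were seen, that order supports nothing, and the matches below are a description. A pair of TAATCC sites stood in opposite orientations 42 and 30 bp to the left of the summit. TAATCC is the sequence bound by K50 homeodomain proteins such as oc, ocelliless. Of all thresholded peaks 3.71% hold that word, and of the coding TSS windows 6.43%. The octamer CTACGCCC was in the CG14100 and CG1888 windows and in 2 of the other 15 strongest peaks. It was in 6 of the 100 strongest, a count that includes these peaks, against 0.792% of all thresholded peaks. It had been noticed among the strongest peaks, so these counts are a description. Runs of at least 5 G, GGGGG, were in the CG14100 window and in 19.2% of all. The same window held an exact inverted repeat with arms of 10 bp, CATGGGCGTA on the left and its reverse complement on the right. The repeat began 73 bp to the left of the summit and ended 86 bp to its right. Its right arm, 19590681 to 19590690, overlaps the CTACGCCC match at 19590680 to 19590687, so these are not separate features. Arms that long or longer occurred in 261 thresholded peaks (5.44%), with a median of 7 bp, and the longest at the other members were 6 or 8 bp.

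**Figure D5:**
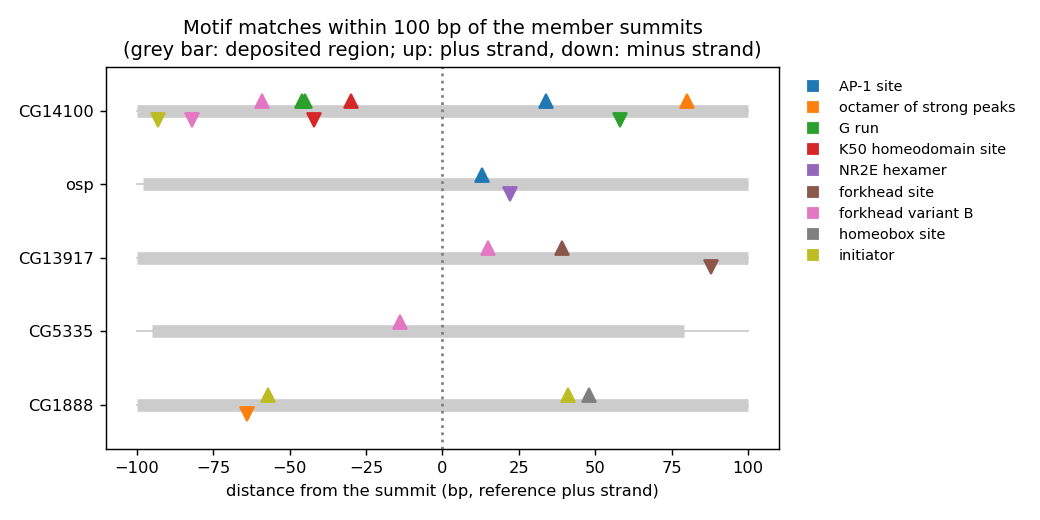
Motif matches by distance in bp from the summit within 100 bp on either side (up, plus strand; down, minus strand; grey bar, deposited region), including the words added after the sequences were seen. The AP-1 matches of CG14100 and osp lie 34 and 13 bp from the summit and the forkhead sites of CG13917 at 39 and 88 bp, all to the right.

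The peaks most like each member were sought over all thresholded peaks found in both replicates, by the Euclidean distance of log2 signal over the pooled list and both replicates, which is 3 lists from 2 samples. CG14100 was nearest to the peak of fkh, the forkhead factor of the salivary gland, at a distance of 0.31, and then to osp at 0.50. The osp peak was nearest to one in sbb, scribbler, at 0.23, and then to that of fkh at 0.33. CG13917 was nearest to the peaks near peb, which encodes a zinc-finger protein needed for germ band retraction, at 0.24, and at Ugalt, a UDP-galactose transporter, at 0.27. CG5335 was nearest to Tcs5 at 0.06 and to the junction protein gene cno at 0.10. CG1888 was nearest to the peak of CG5335 at 0.27 and to that of Tcs5 at 0.30. These are likenesses of level in 3 lists that are not independent, and they carry no statement on shared control.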

How the data were processed

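Peak lists from whole Hr83-GFP larvae were used, 1 group with biological replicates 3 and 4; how the replicates were raised and collected was not given in the sources used here. For dm6 the authors deposited region lists: 1 relaxed list of 30000 regions per replicate, 1 called on both pooled, and 1 thresholded by irreproducible discovery rate; per the deposited notes, a control alignment was used to call the relaxed lists. Aligner and peak-calling software were not given in the sources used here. In each list the deposited signal is the authors' score per region and is not normalized between lists. The deposited −log10 q-value has a ceiling of 3.86, shared by 74.9% of the thresholded peaks and by all 5 member peaks, so peaks were ranked by signal. The deposited summit offset places the summit in the region. Read counts were in none of the lists used, so depth is unknown, no interval or floor was computed, and no p-value was.

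Summits were assigned to genes of Ensembl release 115 with pandas 2.3.3, transposable elements excluded; every region ended within its chromosome on the RefSeq genome of the same build, and 99.5% of 15231 plus-strand coding transcripts began with ATG there. Coordinates are 1-based on dm6; dm3 lists were not used. Regions counted as shared with 1 bp of overlap. Both strands of 200 bp windows were searched for 21 motifs; in all, 13945 coding TSS windows served for comparison, and copies were sought with BLAST 2.17.0. Gene roles are background knowledge; RefSeq gives the products listed as uncharacterized. The counting was tested on simulated data.

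The members and the lists were chosen with earlier results of these data known. Genes named are the members, genes that hold a top summit or have a TSS within 5 kb of it, the nearest coding gene on each side, and the nearest coding gene of the 2 peaks most alike in level. Adhr, the noncoding and transfer RNA genes, mir-14 and Cth fall outside this rule and were named after their values were seen. Alternatives were other gene and TSS distances, overlap rules, motif windows and 1 replicate at a time; 5 motifs were added after the sequences were seen. Sequences of the chromosome arm that holds CG5335 and CG1888, and of untranslated regions, are not printed.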

Additional observations from a re-analysis of the deposited data

How the results depend on the processing

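The count of thresholded regions at the 5 genes, 12, was 6 inside the genes only, and 8 to 15 with limits of 1 and 10 kb. With the 4797 strongest regions of 1 replicate in place of the thresholded list, it ran from 11 (replicate 4 left out) to 13 (replicate 3 left out), and at CG1888 it fell from 4 to 2 without replicate 4, below CG5335 and CG13917 with 3 each. All 5 members were among the 20 strongest without replicate 4, and 4 were without replicate 3, where CG1888 ranked 28. The 9 genes with a TSS within 5 kb of a top summit were 3 within 2 kb and 24 within 10 kb. The 7 motif and peak combinations were 11 in windows of 400 bp and 14 with the 5 added motifs, the latter chosen after seeing the data. The other 18 alternatives moved no count over all members by more than 1.5 times. In these the 3 promoter peaks and the 5 peaks found in both replicates kept their counts, and the median GC content was 39.0% to 41.8%, against 41.0%; the member poorest in GC was CG13917 in the 200 bp window and CG14100 in both alternatives. Within 1 replicate, an alternative added after the data were seen, the ratio of the top region to the second moved by over 1.5 times at CG14100 (28.3 in replicate 3), osp (13.4 in replicate 4) and CG5335 (7.36 in replicate 3). At CG14100 the second region of the pooled list was not that of the replicates.

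No paired analysis was possible because there is 1 group. With 2 replicates, no read counts and no untagged line analysed here, neither the error of a signal nor the background of the antibody at these sites can be given.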
